A study of Mus musculus with 6 samples.

Results

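The mesothelium is the sheet of flat cells that covers the heart and lines the body cavities, and its cardiac part is the epicardium. These cells carry keratins, microvilli and a coat of surface glycoproteins, and in the embryo the epicardium releases cells that become fibroblasts and mural cells of the heart. The 10 genes described here are used as identity genes of this cell type: Upk1b, Upk3b, Gpm6a, Lrrn4, Msln, Muc16 and Pkhd1l1 for its membrane and surface, and Wt1, Bnc1 and Myrf for its transcriptional regulators. They were listed by name and matched to the count table through GENCODE M21 symbols. The list was drawn up with the difference between si-Rbm22 and si-Control libraries already known, so that difference is described below without a test. Of the 10 genes, 9 had a row among the 18951 genes of the table, and all 9 passed the filter on low counts that left 14621 genes. Muc16, which encodes the very large mucin that binds mesothelin, was not analysed here.

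The series measured RNA in primary cultures of heart cells from C57BL/6 mice (C57BL/6J in the protocols) at postnatal day 1, labelled as neonatal mouse cardiomyocytes and used at a purity above 97.5% by cardiac troponin T staining. Of the 6 cultures, 3 received scramble siRNA (si-Control) and 3 an siRNA against Rbm22 (si-Rbm22), a spliceosome gene. RNA was taken 48 h after transfection. No transgene, Cre or mutant allele is named for either group. The 3 samples per group are termed biological replicates, and whether hearts were pooled or isolated separately is not stated, so the spread between libraries may be technical.

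Whether the libraries labelled si-Control held the cells that their label names was in doubt and was not tested. They are called the si-Control-labelled libraries below. Myh6, the adult-type cardiac myosin heavy chain of rodents, had 3, 1 and 0 reads in these libraries and 674460, 661310 and 384503 in the si-Rbm22 libraries. Myod1, a master regulator of skeletal muscle, had a mean of 73.4 ± 6.78 CPM (SD, n = 3; CPM are reads scaled to a common library total by the TMM method) in the si-Control-labelled libraries and no read in si-Rbm22. Cardiomyocyte markers were not all absent from the si-Control-labelled libraries. Tnnt2, the gene of cardiac troponin T, was at 42.2 ± 2.9 CPM there and 4529 ± 908 CPM in si-Rbm22. Ttn was at 66.7 ± 8.48 and 3638 ± 1123 CPM, while 6 of the 15 markers had no read in the si-Control-labelled libraries. All 15 cardiomyocyte markers tested, all 14 endothelial markers and all 10 tested of 13 macrophage markers were higher in si-Rbm22. In contrast, 10 of 12 fibroblast markers and 9 of 9 tested skeletal muscle precursor markers were lower. Across the table, 82.0% of the genes tested passed edgeR's quasi-likelihood test at a Benjamini-Hochberg adjusted p under 0.05, with 43.1% higher and 38.9% lower in si-Rbm22. The median log2 fold change of all genes tested was 0.05. Rbm22 itself was at 23.2 ± 1.79 CPM and, in si-Rbm22, at 13.5 ± 0.892 CPM, a log2 fold change of -0.78 (SE 0.097, adjusted p = 4.22e-06). Library totals lay between 34269042 and 37344860 reads. The 2 groups thus differed in most genes and in the markers of several cell types, and the part of this in each result below was not tested.

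For 5 of the 10 genes, Upk3b, Lrrn4, Bnc1, Gpm6a and Muc16, the RefSeq promoter table (GRCm38.p6) held a window of 250 bases before to 50 bases after the start. The bases before the start are shown for the measured genes, and shared regulation of these genes was not tested. Capitals mark a match to the TEAD motif GGAATG or, read on the other strand, to CATTCC, the core letters of TEAD factors, the DNA-binding partners of the YAP coactivator, or to the TATA box, spelled TATAAA or, read on the other strand, as TTTATA.
Upk3b, chr5:136038246-136038495, plus strand: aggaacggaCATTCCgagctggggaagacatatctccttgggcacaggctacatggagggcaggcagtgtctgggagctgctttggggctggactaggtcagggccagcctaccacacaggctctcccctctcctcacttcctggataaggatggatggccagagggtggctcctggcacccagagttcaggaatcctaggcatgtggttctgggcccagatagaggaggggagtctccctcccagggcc
Lrrn4, chr2:132880892-132881112, minus strand: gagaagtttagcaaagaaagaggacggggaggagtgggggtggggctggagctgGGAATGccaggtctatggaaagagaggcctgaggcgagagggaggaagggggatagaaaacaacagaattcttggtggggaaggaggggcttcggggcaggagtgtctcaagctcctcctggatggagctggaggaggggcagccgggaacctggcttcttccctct
Gpm6a, upstream start, chr8:54779184-54779433, plus strand: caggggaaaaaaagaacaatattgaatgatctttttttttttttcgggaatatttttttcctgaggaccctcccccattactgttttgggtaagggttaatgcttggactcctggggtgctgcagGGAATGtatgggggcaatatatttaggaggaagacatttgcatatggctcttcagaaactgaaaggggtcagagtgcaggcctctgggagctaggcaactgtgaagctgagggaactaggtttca
Gpm6a, downstream start, chr8:54954478-54954727, plus strand: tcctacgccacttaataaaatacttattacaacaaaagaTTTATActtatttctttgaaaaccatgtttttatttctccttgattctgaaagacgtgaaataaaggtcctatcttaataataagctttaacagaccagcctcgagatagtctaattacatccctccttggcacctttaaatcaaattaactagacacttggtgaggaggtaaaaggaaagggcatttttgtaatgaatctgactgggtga
Bnc1, chr7:81992300-81992549, minus strand: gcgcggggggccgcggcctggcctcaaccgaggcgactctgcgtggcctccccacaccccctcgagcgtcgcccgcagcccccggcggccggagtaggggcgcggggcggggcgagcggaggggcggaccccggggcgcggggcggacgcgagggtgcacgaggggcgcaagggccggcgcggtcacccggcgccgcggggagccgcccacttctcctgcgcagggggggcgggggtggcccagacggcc
Each stretch ends at the base before the RefSeq start, except that 29 bases nearest the Lrrn4 start, which lie in a GENCODE exon, were left out. The Bnc1 stretch overlaps 2 GENCODE exons, and no bases were left out of it. The TEAD letters began 241 bases before the start of Upk3b (position -241), 196 bases before that of Lrrn4 (-196) and 125 bases before the upstream start of Gpm6a (-125). That start lies 175409 bases before the Gpm6a start in GENCODE M21, outside the gene interval given below and within the interval of its neighbour Wdr17, and the downstream start, 115 bases before the GENCODE start, had no TEAD letters in its window. The TEAD letters were present, on either strand, in 3 of the 6 windows and in 14.66% of all 32851 promoter windows. With so few windows, their share is a description only. The TATA letters were in 1 window, at -211 of the downstream Gpm6a start, against 13.62% of all windows. The GATA letters AGATAA (11.18% of all windows), the AP-1 letters TGANTCA (7.808%), the WT1 and EGR letters GCGGGGGCG (2.907%) and the E-box CAGCTG (16.3%) were found in none of the 6 windows on either strand. The matches found did not overlap one another, and a match describes the letters only. Base composition ranged widely: 83.6% of the Bnc1 stretch was G or C, against 60.8% for Upk3b, 59.3% for Lrrn4, 44.4% and 33.6% for the upstream and downstream starts of Gpm6a, and a median of 52.4% over all windows.

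Of the 6 measured membrane and surface genes, 5 had no or almost no reads in the si-Control-labelled libraries and were well expressed in si-Rbm22. Upk3b (ENSMUSG00000042985; GRCm38 chr5:136038496-136046487) encodes a uroplakin, one of the proteins that build plaques in the surface of bladder epithelium and that mesothelium also makes. It had 0 reads in each si-Control-labelled library and 582.6, 597.7 and 634.7 CPM in si-Rbm22 replicates 1, 2 and 3. Upk1b (ENSMUSG00000049436; chr16:38773184-38800328), a tetraspanin of the same plaques, likewise had 0 reads in each si-Control-labelled library and 336.8, 306.6 and 368.8 CPM in si-Rbm22. Both genes were thus silent to the depth of these libraries in one group and well expressed in every library of the other. Set against a floor of 3 counts over the 3 si-Control-labelled libraries, Upk3b was at least 21630-fold higher and Upk1b at least 12060-fold higher. In such bulk samples, fewer cells of a type and less RNA per cell cannot be told apart.

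Gpm6a (ENSMUSG00000031517; chr8:54954843-55060871), a proteolipid family glycoprotein of the cell membrane known best from neurons, had 0 reads in each si-Control-labelled library. Its si-Rbm22 levels were 287.6, 287.8 and 329.8 CPM, at least 10790-fold higher. Lrrn4 (ENSMUSG00000043110; chr2:132868305-132880891), a membrane protein with leucine-rich repeats, had 0, 0 and 2 reads against 526.8, 517.1 and 586.5 CPM. The 2 reads came from 1 library, and the ratio of the pooled reads, each group over its scaled depth, was 29170 (95% counting interval 8074 to 240800). Pkhd1l1 (ENSMUSG00000038725; chr15:44457494-44601369), the fibrocystin-like giant membrane protein, had 0, 1 and 1 reads against 275.3, 251.9 and 283.2 CPM, a ratio by the same measure, which is used for all ratios below, of 14500 (4012 to 119700). For these 3 genes, too, every si-Control-labelled library was at or near 0 and replicate 3 was the highest of si-Rbm22.

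Msln stood apart from the other surface genes. Msln (ENSMUSG00000063011; chr17:25748613-25754378), mesothelin, is a lipid-anchored surface glycoprotein to which Muc16 binds. It had 1701, 1642 and 1652 reads in the si-Control-labelled libraries, a mean of 46.6 ± 1.21 CPM, and 197.6, 200.1 and 227.1 CPM in si-Rbm22. It was therefore plainly present in both groups, and its ratio was 4.48 (4.34 to 4.62).

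The 3 regulators had reads in all 6 libraries. Wt1 (ENSMUSG00000016458; chr2:105126529-105173616), the zinc finger factor of the epicardium, of podocytes and of the gonad, had 136, 101 and 133 reads in the si-Control-labelled libraries (3.46 ± 0.584 CPM) and 87.67, 93.01 and 83.37 CPM in si-Rbm22. Bnc1 (ENSMUSG00000025105; chr7:81966672-81992292), the zinc finger protein basonuclin of mesothelium, keratinocytes and germ cells, had 71, 72 and 73 reads (2.02 ± 0.077 CPM) and 213.6, 206.1 and 229.9 CPM. Myrf (ENSMUSG00000036098; chr19:10208272-10240748), a membrane-bound factor that cuts itself free and is known for myelin genes, had 18, 23 and 22 reads (0.588 ± 0.079 CPM) and 278.9, 269.5 and 265.9 CPM. Each regulator was low in every si-Control-labelled library and high in all 3 si-Rbm22 libraries. The ratios were 25.5 (23.0 to 28.4) for Wt1, 107.6 (94.1 to 123.6) for Bnc1 and 462.0 (361 to 601.3) for Myrf. Of the exon bases of Bnc1, 98 of 4646 are shared with a pseudogene on the opposite strand, whose reads could not be separated without strand.

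**Figure D1:**
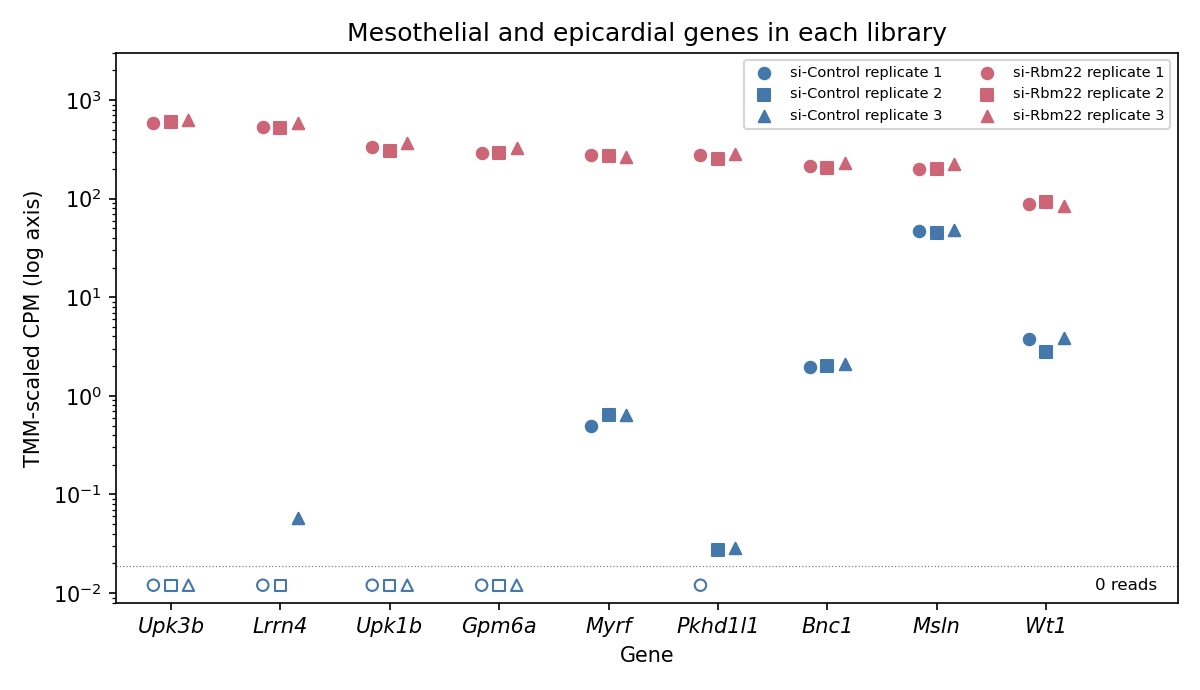
Level of each of the 9 measured genes in each of the 6 libraries, as TMM-scaled CPM on a log axis, with libraries without reads drawn as open symbols below the dotted line. Upk1b, Upk3b and Gpm6a have no reads in any si-Control-labelled library, and Msln has the smallest distance between the groups, 46.6 against 208.3 CPM.

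All 9 measured genes were higher in every si-Rbm22 library than in any si-Control-labelled library. By another measure, the edgeR call, 43.1% of all genes tested were higher, and the share of all genes without overlap was not computed. As the 9 genes were chosen from this contrast, nothing follows from their lack of overlap. The distance between the groups was nevertheless uneven, from a ratio of 4.48 for Msln to lower bounds of 10790 to 21630 for Upk1b, Upk3b and Gpm6a. Of all 2674 tested genes with at least the si-Rbm22 level of Wt1 (88.0 CPM), 43 (1.608%) had 3 or fewer reads over the si-Control-labelled libraries, and 26 had none. Upk1b, Upk3b, Gpm6a, Lrrn4 and Pkhd1l1 were among those 43 genes, and the first 3 were among the 26. Because the choice of genes rested on this same contrast, their place there is a description only and nothing follows from it.

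Compared per kilobase of exon, the levels within si-Rbm22 ran over a wide range. Upk3b (171.4 ± 7.60 CPM per kb), Upk1b (161.5 ± 14.9) and Lrrn4 (146.3 ± 10.1) were highest. The ranges of Upk3b and Upk1b over the libraries overlapped, as did those of Upk1b and Lrrn4. Within every si-Rbm22 library, though, Upk3b was above Upk1b and Upk1b above Lrrn4. Gpm6a (93.8 ± 7.56), Msln (68.0 ± 5.34), Bnc1 (46.6 ± 2.62) and Myrf (31.7 ± 0.784) followed, each separated from the next by more than the spread of the libraries. Pkhd1l1 (14.6 ± 0.878) and Wt1 (14.2 ± 0.780) were lowest and overlapped. Pkhd1l1 has 18536 exon bases, against 2089 for Upk1b. The membrane genes of the plaque and Lrrn4 thus stood above all 3 regulators. With the longest transcript in place of all exon bases, an alternative chosen after seeing the data, only Lrrn4 kept its rank, Upk1b (178.1) came before Upk3b (171.4), and Msln (96.2) before Gpm6a (93.8). By that measure Myrf stood at 47.8, Bnc1 at 46.6, Wt1 at 28.5 and Pkhd1l1 at 20.9 CPM per kb, so Wt1 and Myrf moved by over 1.5 times and the order among the lower genes depends on the length used. Upk1b, Upk3b and Lrrn4 remained above the other 6 genes.

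**Figure D2:**
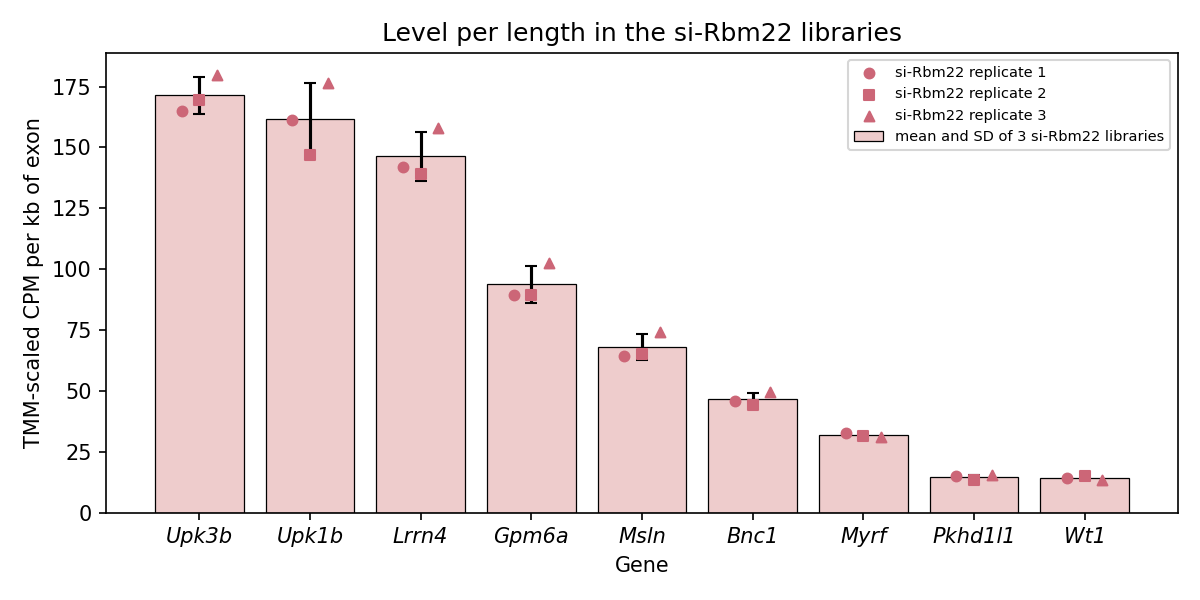
Level per kilobase of exon (CPM per kb) of the 9 measured genes in the si-Rbm22 libraries, with points for libraries, bars for means and error bars for SD. Upk3b, Upk1b and Lrrn4 have means of 146.3 or more, and Pkhd1l1 and Wt1 have means of 14.6 and 14.2.

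The make-up of the group's RNA also differed. The 9 genes summed to 53.1, 50.7 and 54.2 CPM in the si-Control-labelled libraries and to 2787, 2730 and 3009 CPM in si-Rbm22. Msln alone was 88.5 ± 0.786% of the sum in the si-Control-labelled libraries and 7.32 ± 0.228% in si-Rbm22. Wt1 (6.54 ± 0.907%), Bnc1 (3.83 ± 0.123%) and Myrf (1.12 ± 0.164%) made up nearly all the rest in the si-Control-labelled libraries. In si-Rbm22, Upk3b took 21.3 ± 0.526%, Lrrn4 19.1 ± 0.327% and Upk1b 11.9 ± 0.548%. Transcripts of the mitochondrial genome summed to 20800 to 23160 CPM in the si-Control-labelled libraries and 52350 to 58810 CPM in si-Rbm22, and the part of this difference in the summed levels was not tested. Without Msln the sums were 6.10 ± 0.621 and 2634 ± 132 CPM. The trace of these genes in the si-Control-labelled libraries was therefore mostly mesothelin with a little of the 3 regulators, in shares unlike those of si-Rbm22. Shares of CPM also carry gene length, which is the same in both groups.

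**Figure D3:**
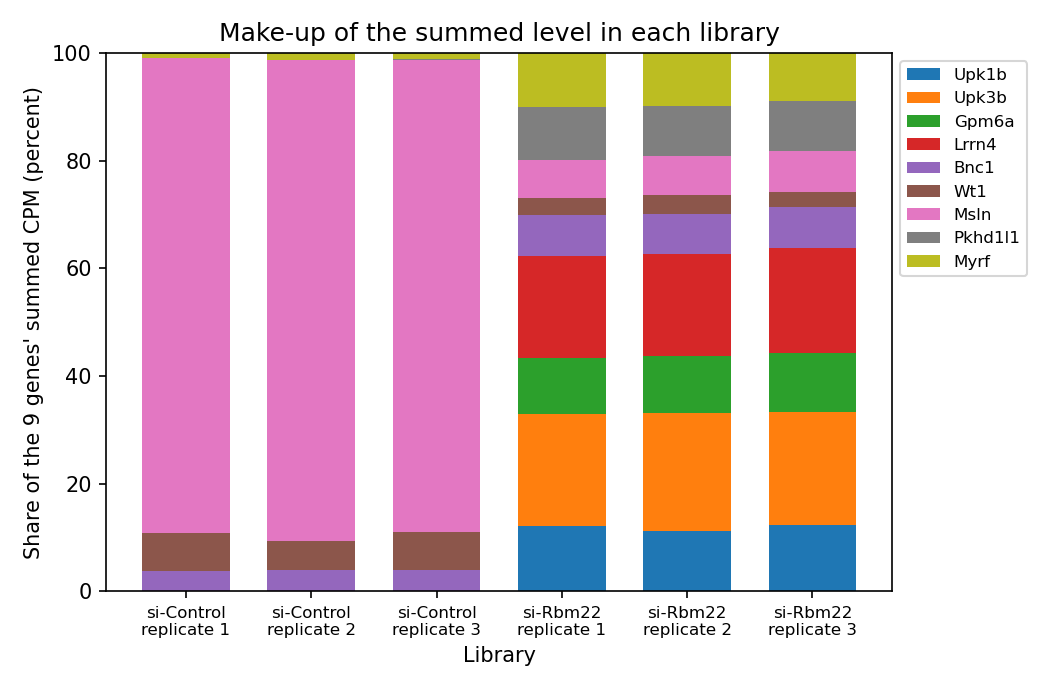
Share of the summed CPM of the 9 measured genes that each gene takes in each library, in percent. Msln takes 88.5% on average in the si-Control-labelled libraries and 7.32% in si-Rbm22, where Upk3b takes 21.3%.

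Among the si-Rbm22 libraries, most of the 9 genes varied somewhat more than the median gene of like level. Over all genes, replicate 3 stood apart, with a chi-square per degree of freedom of 30.1 and 30.9 against replicates 1 and 2, which differed by 10.5. The coefficient of variation ran from 2.47% for Myrf to 9.22% for Upk1b. The median was 5.36% over 2503 genes tested with means between those of Wt1 and Upk3b. Gpm6a (8.05%), Msln (7.86%), Lrrn4 (6.91%), Pkhd1l1 (6.03%), Bnc1 (5.62%) and Wt1 (5.49%) also lay above that median, and Upk3b (4.43%) lay below it, as Myrf did. The sum of the 9 genes varied by 5.20%, which is not comparable with a median of single genes. Upk1b, Upk3b, Gpm6a, Lrrn4, Bnc1, Msln and Pkhd1l1, 7 of the 9, were highest in replicate 3, whereas Wt1 and Myrf were lowest there. Over the 9 genes, replicate 3 was at a median of 1.10 times the mean of replicates 1 and 2 (0.923 to 1.15). Of the 2503 genes, 36.7% were highest in replicate 3, with a median ratio of 0.987. The cardiomyocyte markers went the other way: 13 of 15 were lowest in replicate 3 and none was highest, and their sum was 45180, 46460 and 30220 CPM. The part of this shift in the values of replicate 3 was not tested.

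Ratios between pairs of these genes varied by different amounts across the 3 si-Rbm22 libraries. Gpm6a stood to Msln, both in CPM, at 1.455, 1.438 and 1.452, the tightest of the 36 pairs with a coefficient of variation of 0.619%. Lrrn4 stood to Gpm6a at 1.832, 1.796 and 1.778 (1.51%). Upk1b and Wt1 were the loosest pair, at 3.841, 3.297 and 4.424 (14.6%), and the median of the 36 pairs was 5.56%. With 3 libraries and 36 pairs, the ends of this range are a description only.

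**Figure D4:**
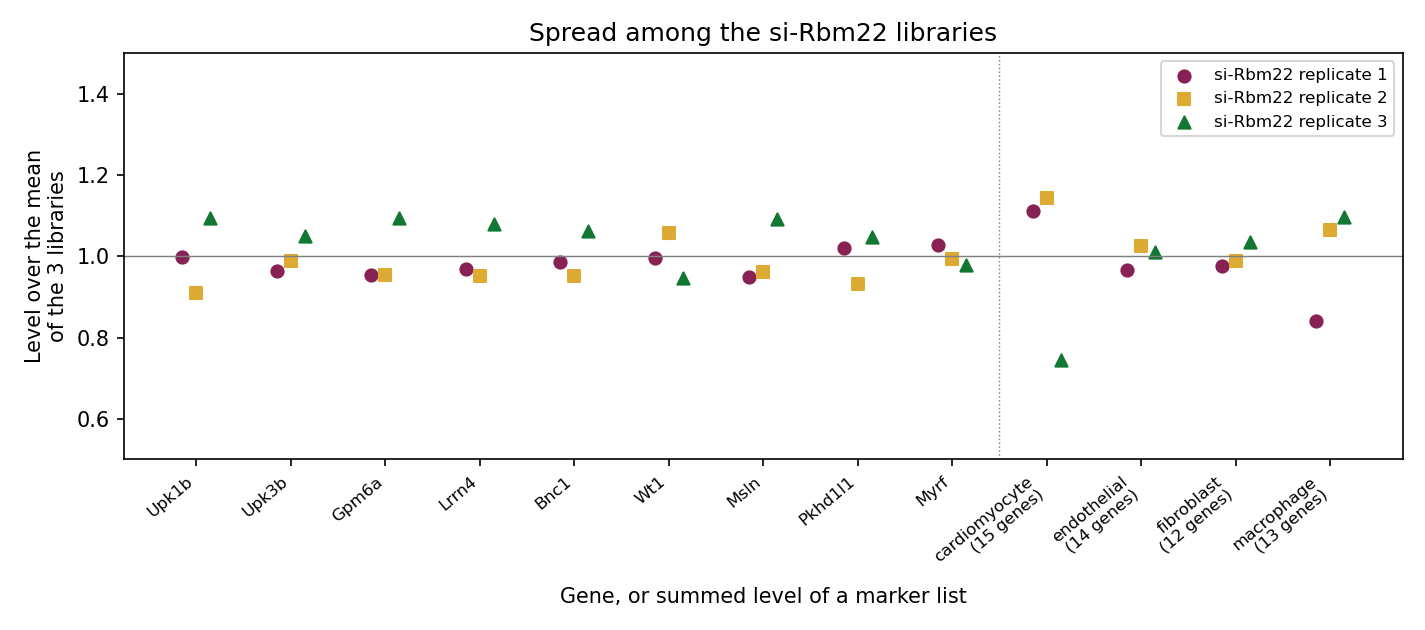
Level in each si-Rbm22 library relative to the gene's mean over the 3 si-Rbm22 libraries, for the 9 measured genes (left of the dotted line) and for 4 summed marker lists (right). Of the 9 genes, 7 are highest in replicate 3, where the cardiomyocyte marker sum is 30220 CPM against 45180 and 46460.

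Other genes of mesothelium and epicardium, from a list of 37, were mostly higher in si-Rbm22 as well. Of 35 tested, 28 (80.0%) rose, beside 43.1% of all genes, 4 fell, beside 38.9%, and 3 did not pass the test. The median log2 fold change was 4.69, beside 0.05 over all genes tested. The list was written with results of these data known, and endothelial, cardiomyocyte and macrophage markers rose with it, so the counts are a description. Summed cardiomyocyte markers went from 114.9 to 135.2 CPM up to 30220 to 46460 CPM, endothelial markers from 9.62 to 11.3 up to 546.2 to 579.9 CPM, and macrophage markers from 5.71 to 7.47 up to 122.2 to 159.3 CPM. Mybpc3, Myl2, Nppa, Tie1, Emcn and Adgre1 had no read in any si-Control-labelled library, and the part of these cell types in the list's rise was not tested. Crb2, a polarity protein, had 0, 1 and 1 reads in the si-Control-labelled libraries and 129 ± 4.38 CPM in si-Rbm22, a ratio of 6921 (1916 to 57150; adjusted p = 2.97e-16). Sema3d, a guidance factor of the epicardium, rose from 13.4 ± 0.477 to 344.1 ± 16.4 CPM (log2 fold change 4.69, SE 0.069, adjusted p = 8.61e-16). The keratins of simple epithelia were higher too. Krt18 had no read in the si-Control-labelled libraries and was at least 3751-fold higher, and Krt8 had 1 read there against 154 ± 16.1 CPM, a ratio of 16490 (2959 to 651400). Krt19 rose from 1, 7 and 3 reads to 144.2 ± 17.2 CPM. The epicardial transcription factor Tcf21 had no read in the si-Control-labelled libraries and 57.1 ± 7.51 CPM in si-Rbm22, while Tbx18, another one, rose from 49.2 ± 3.24 to 134.1 ± 6.03 CPM (log2 fold change 1.45). Tbx18 was thus present in both groups, as Msln and Wt1 were.

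The list did not move as one. The ferroxidase gene Cp fell from 225.8 ± 16.3 to 9.81 ± 0.685 CPM (-4.52 on the log2 scale, SE 0.080, adjusted p = 5.21e-15), and the water channel gene Aqp1 fell from 184.4 ± 2.90 to 54.6 ± 10.3 CPM (-1.76, SE 0.111, adjusted p = 9.89e-08). Igfbp2 and Saa3 were the other 2 that fell. Pdpn, podoplanin, was at 237.9 ± 9.25 and 242.2 ± 5.25 CPM (log2 fold change 0.03, SE 0.055, adjusted p = 0.673), and Rarres2 and Anxa8 did not pass the test either. Itln1 and Dmkn had too few reads to be tested. Cp, Aqp1, Igfbp2 and Pdpn were thus well expressed in the si-Control-labelled libraries, as Msln was.

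Of 13 genes reported elsewhere as Wt1 targets, 11 were tested, of which 6 (54.5%) rose, 4 (36.4%) fell and 1 did not pass. These shares lie near the 43.1% and 38.9% of all genes tested. Their median log2 fold change was 1.56, beside 0.05 over all genes. Aldh1a2, the enzyme that makes retinoic acid in the epicardium, had no read in the si-Control-labelled libraries and 97.3 ± 3.29 CPM in si-Rbm22, at least 3479-fold higher. Podxl, a sialomucin of podocytes and mesothelium, rose from 1.75 ± 0.086 to 27.7 ± 4.66 CPM (log2 fold change 3.98, SE 0.155, adjusted p = 1.41e-11). Snai1, a repressor of epithelial genes, fell from 45.3 ± 3.28 to 5.96 ± 0.613 CPM (-2.92, SE 0.10, adjusted p = 3.53e-12), and the vitamin D receptor gene Vdr fell from 83.7 ± 1.21 to 4.43 ± 1.28 CPM (-4.24, SE 0.151, adjusted p = 6.27e-10).

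Genes of the epithelial to mesenchymal transition, through which epicardial cells leave their sheet, were mostly lower: 15 of 19 (78.9%) fell, beside 38.9% of all genes tested, and 4 (21.1%) rose, beside 43.1%. The median log2 fold change was -1.0, beside 0.05 over all genes. Cdh1, a marker of epithelia, counts among the genes that rose. Ctnnb1, Pdgfra and Tgfbr3 count among those that fell, with log2 fold changes of only -0.15, -0.2 and -0.18. Each of these 3 lost its call in some alternatives. Tgfbr2, a receptor for TGF-beta, fell from 699.5 ± 17.4 to 198.7 ± 4.08 CPM (-1.82, SE 0.055, adjusted p = 9.80e-13), and the ligand gene Tgfb2 from 199.8 ± 8.75 to 50.7 ± 1.81 CPM (-1.98, SE 0.060, adjusted p = 9.85e-13). Cdh2, the cadherin of cardiomyocytes and mesothelium, rose from 100.9 ± 1.97 to 627.3 ± 32.7 CPM (2.64, SE 0.061), and Twist1 from no read to 13.7 ± 1.86 CPM. The list shares genes with mesenchyme in general, and the summed fibroblast markers stood at 25860 to 28050 CPM in the si-Control-labelled libraries and 6378 to 6769 CPM in si-Rbm22. The part of the fibroblast difference in these falls was not tested.

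Junction and polarity genes of epithelia rose in 12 of 16 tested genes (75%, beside 43.1% of all genes) and fell in 1, Pard6a (6.25%, beside 38.9%), and 3 did not pass. Among these genes, Crb2 and Cldn15 are also in the list of other mesothelial and epicardial genes, and Cdh1 is in the Wt1 target and transition lists. The median log2 fold change was 5.89, or 5.41 with genes without reads in a group at their bound, beside 0.05 over all genes. Cxadr, an adhesion protein of cell contacts, rose from 1.47 ± 0.257 to 270.9 ± 9.22 CPM (7.52, SE 0.097, adjusted p = 2.97e-16). Cldn15, a claudin, rose from 5, 2 and 4 reads to 58.1 ± 5.13 CPM. Pard6a fell from 8.88 ± 0.717 to 5.66 ± 0.065 CPM (-0.65, SE 0.139, adjusted p = 0.000613). Cdh1 and Epcam, which mark most other epithelia and are low in mesothelium, were low in si-Rbm22. Epcam had 14, 4 and 8 reads there and was not tested. Cdh1 had no read in the si-Control-labelled libraries and 1.45 ± 0.508 CPM in si-Rbm22, and was called higher (adjusted p = 3.64e-06). The claudin genes Cldn3 and Cldn4 also had no read in the si-Control-labelled libraries. Both were called higher, at 10.9 ± 1.95 and 2.41 ± 0.22 CPM in si-Rbm22. Cxadr is also a protein of cardiomyocyte contacts, whose markers rose in the same libraries.

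Of secreted factors of the epicardium, 9 of 15 (60.0%) were higher and 6 (40%) lower, beside 43.1% and 38.9% of all genes tested, with a median log2 fold change of 1.21. Fgf1, a growth factor, had 2, 3 and 4 reads in the si-Control-labelled libraries and 128.6 ± 14.5 CPM in si-Rbm22. Bmp4, a ligand of the BMP family, fell from 217.9 ± 0.548 to 62.7 ± 4.54 CPM (-1.80, SE 0.063, adjusted p = 4.29e-12). Fgf10 was the gene of the list with the lowest log2 fold change, at -7.35, from 36.1 ± 1.89 to 0.215 ± 0.185 CPM.

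**Figure D5:**
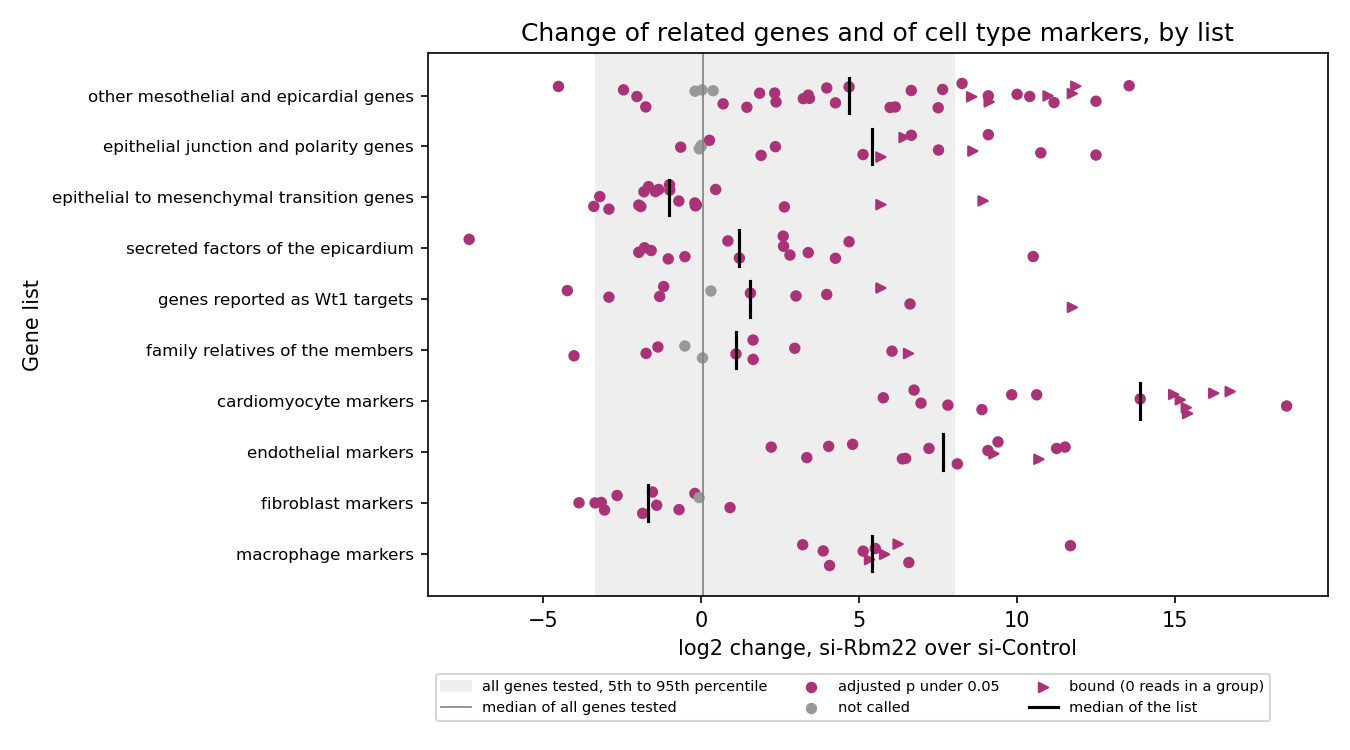
Log2 change, si-Rbm22 over si-Control, of every tested gene of 10 lists, with triangles for genes set at their bound, bars for the medians of the lists, a line for the median of all genes tested (0.05) and a band from their 5th to 95th percentile (-3.33 to 8.02). Other mesothelial and epicardial genes have a median of 4.69 and genes of the epithelial to mesenchymal transition one of -1.0.

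Relatives in the same gene families, and partner genes named for or tied to a member of the group, were compared next. Of 17 relatives, 15 had a row and 11 were tested, of which 6 (54.5%) rose, 3 (27.3%) fell and 2 did not pass, beside 43.1% and 38.9% of all genes tested. Their median log2 fold change was 1.10. Upk1a, the bladder tetraspanin most like Upk1b, rose from 0.310 ± 0.137 to 0.971 ± 0.320 CPM (1.64, SE 0.465, adjusted p = 0.00478). Per kilobase of exon in si-Rbm22 it stood at 0.683 ± 0.225 CPM, against 161.5 ± 14.9 for Upk1b. Upk3bl, which lies 8004 bases from Upk3b, had 4 reads in each si-Rbm22 library and none in the others. Upk2 and Upk3a were not analysed here. Of the 4 uroplakin genes measured, Upk1b and Upk3b were thus the abundant ones per length.

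Gpm6b fell from 16.5 ± 0.752 to 1.006 ± 0.217 CPM (-4.03, SE 0.171, adjusted p = 3.73e-11), the direction opposite to that of Gpm6a. Bnc2 fell from 19.9 ± 0.859 to 7.72 ± 1.86 CPM (-1.37, SE 0.150, adjusted p = 1.64e-06), whereas Bnc1 was higher in si-Rbm22. Among the Lrrn genes, Lrrn1 rose from 0.233 ± 0.069 to 1.85 ± 0.183 CPM and Lrrn2 from no read to 58, 90 and 143 reads. Lrrn3 fell from 18.1 ± 1.87 to 5.40 ± 0.658 CPM (-1.75, SE 0.132, adjusted p = 2.00e-08).

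Lrrn4cl, which encodes a protein named for its likeness to Lrrn4, rose from 0.520 ± 0.448 to 34.1 ± 4.85 CPM (6.04, SE 0.328, adjusted p = 1.82e-07). Tmem98, whose protein binds the Myrf protein and blocks its self-cleavage, rose from 43.6 ± 2.58 to 136.4 ± 4.47 CPM (1.65, SE 0.062, adjusted p = 1.06e-11). Muc1 was at 0.325 ± 0.173 and 0.335 ± 0.144 CPM and Pkhd1 at 0.262 ± 0.108 and 0.182 ± 0.104 CPM, and neither passed the test. Mslnl, Muc4 and Myrfl had at most 24 reads in any library and were not tested. Per kilobase of exon in si-Rbm22, Tmem98 (83.5 ± 2.76 CPM) lay between Gpm6a and Msln and Lrrn4cl (13.1 ± 1.87) near Wt1, and the highest of the other 13 relatives was Lrrn3 (1.40 ± 0.170).

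Several of the genes are also known from other tissues, and markers of those tissues were mixed. Of urothelial markers, Krt5 had 0, 0 and 6 reads in si-Rbm22, and the 8 measured markers summed to 13.4 to 15.8 CPM there, against 6.25 to 6.51 CPM in the si-Control-labelled libraries. Of 6 tested, 5 (83.3%, beside 43.1% of all genes) rose, namely Upk1a, Gata3, Psca, Krt20 and Grhl3, and Trp63 fell. Gata3 reached 8.88 ± 1.76 CPM and Krt20, without reads in the si-Control-labelled libraries, 2.77 ± 0.289 CPM. Of podocyte markers, Nphs1, a gene of the slit diaphragm, had 4, 0 and 0 reads in si-Rbm22. The podocyte list, whose sum is mostly Cd2ap and Synpo, stood at 263.5 to 303.6 CPM against 168.7 to 175.6 CPM. Of its 6 tested genes 5 (83.3%) rose, among them Podxl, and Synpo fell. Krt5 and Nphs1 were thus at or near 0 in the libraries where Upk1b, Upk3b and Wt1 were high, while other markers of both lists rose there, and their part in the levels of these genes was not tested.

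Glial and neuronal lists were mixed as well. Of oligodendrocyte and Schwann markers, Mog had 1, 0 and 0 reads and Sox10 had 4, 6 and 34 reads in si-Rbm22, but Mbp, myelin basic protein, rose from 0.587 ± 0.017 to 86.9 ± 4.26 CPM (7.20, SE 0.107, adjusted p = 9.52e-16). The list held 3 tested genes, which all rose, and its sum of 346.8 to 386.2 CPM in si-Rbm22, against 249.2 to 258.0 CPM, was mostly Pmp22. Of neuron markers, Snap25 had 4, 0 and 0 reads in si-Rbm22, and of 7 tested, 4 rose and 2 fell, with sums of 34.2 to 43.3 CPM against 60.5 to 63.4 CPM. Of keratinocyte markers, 2 of 4 tested rose and 2 fell, with sums of 66.2 to 83.6 CPM against 18.7 to 21.1 CPM, mostly Krt14. Smooth muscle and pericyte markers, which epicardial derivatives can carry, rose in 7 and fell in 4 of 11, with overlapping sums of 2621 to 3150 CPM in si-Rbm22 and 2990 to 3057 CPM in the si-Control-labelled libraries. These 4 lists are to be read beside the 43.1% of all genes that rose and the 38.9% that fell.

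The genes beside the identity genes were called at about the rate of all genes. For the 9 measured genes, which lie on 8 chromosomes, the nearest protein-coding gene on each side gave 18 neighbours, of which 12 were tested. Of these, 5 (41.7%) rose, beside 43.1% of all genes, 5 (41.7%) fell, beside 38.9%, and 2 did not pass the test. Tmem258, a small membrane protein gene 447 bases from Myrf, fell from 82.3 ± 3.14 to 23.9 ± 0.388 CPM (-1.79, SE 0.064, adjusted p = 5.40e-12). Dagla, an endocannabinoid-synthesizing lipase gene 4516 bases from Myrf on its other side, fell from 47.5 ± 3.17 to 10.6 ± 0.614 CPM (-2.17, SE 0.085, adjusted p = 1.63e-11). Myrf was thus the only gene of the 3 with a higher level in si-Rbm22. Crls1, the cardiolipin synthase gene 1519 bases from Lrrn4, stood at 32.6 ± 1.10 and 36.0 ± 2.82 CPM (0.14, SE 0.077, adjusted p = 0.0961).

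Mslnl, 282 bases from Msln, had 0, 3 and 5 reads in the si-Control-labelled libraries and 24, 2 and 8 reads in si-Rbm22. Dtx2, 5623 bases from Upk3b, was at 27.2 ± 1.09 and 25.1 ± 1.18 CPM (-0.12, SE 0.078, adjusted p = 0.169). Hdgfl3, 32198 bases from Bnc1, had no read in the si-Control-labelled libraries and 39.06 ± 4.005 CPM in si-Rbm22, at least 1396-fold higher. The other 4 that rose were B4galt4 and Narfl, with log2 fold changes of 1.24 and 0.57, and Wdr17 (17, 36 and 12 reads in si-Rbm22) and Fermt1 (20, 13 and 47 reads), both without reads in the si-Control-labelled libraries. Sh3gl3, on the other side of Bnc1, and Ebag9 and Eny2, on the sides of Pkhd1l1, fell by 5.03, 0.37 and 0.18 on the log2 scale, and the call for Eny2 was lost in some alternatives.

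The 5 genes outside the list whose profile over the 6 libraries was most like the mean profile of the 9 genes were Vat1l, Adcyap1r1, Aldh1a2, Pcsk5 and Stk26. Likeness was the root mean square difference of centred log2(CPM + 0.5) values, among 11152 genes that averaged 5 CPM or more, and it was 0.031 for Vat1l and 0.079 for Stk26. All 5 had 0 reads in each si-Control-labelled library. Vat1l stood at 98.2, 98.9 and 102.6 CPM in si-Rbm22 and Aldh1a2, the retinoic acid enzyme named above, at a mean of 97.3 ± 3.29 CPM. The measured genes themselves differed from their own mean profile by 0.171 (Myrf) to 2.76 (Msln), so the mean is a middle between unlike profiles. The choice of the 5 rests on the pseudocount: with 0.1 or 1 in place of 0.5, none of the 5 remained.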

How the data were processed

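The 6 libraries (3 si-Control, 3 si-Rbm22, grouped by sample title) are described by read counts per Ensembl gene, which the authors deposited as whole numbers without normalization. GRCm38, HISAT2, HTSeq, fastp and DESeq2 are listed, without versions or roles, in the submitters' processing notes. Not given in the sources used here are the annotation release, the strand setting and the handling of reads shared by genes. Of 18951 identifiers, 18856 matched GENCODE M21.

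The counts were fitted with edgeR 4.0.16 in R 4.3.3 (TMM scaling, filterByExpr, robust quasi-likelihood test, group as the only term, all 6 libraries). Genes passed at a Benjamini-Hochberg adjusted p under 0.05 over all 14621 genes tested. Log2 fold changes above 0 mean higher in si-Rbm22. Their SE was derived from the quasi-likelihood F (size of the log2 fold change over the root of F) and can be below counting error for genes with few reads in a group. Levels are TMM-scaled CPM as mean ± SD over 3 libraries, and the order of levels between genes is given per kilobase of exon. A gene without reads in a group was set at 3 counts over that group. Ratios are of reads pooled over a group, relative to its pooled scaled library sizes, with 95% exact intervals. Only counting error is covered by intervals and floors, as reads are not independent molecules. No 2 replicates agreed within sampling noise (chi-square per degree of freedom 4.52 to 7.05 in si-Control, 10.5 to 30.9 in si-Rbm22).

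The 10 genes and all lists were chosen with earlier results of these data known. Some genes stand in more than 1 list, so the counts of the lists are not independent. Crb2, Cldn15, Aldh1a2, Podxl, Sema3d, Rspo1 and Fgf9, for example, are in the mesothelial list and at least 1 other. Named are the 10 genes, their family relatives, the 2 smallest p per direction and defining markers of the other lists, neighbours, Rbm22 and the 5 likest genes. Igfbp2, Saa3, Mybpc3, Myl2, Nppa, Tnnt2, Ttn, Tie1, Emcn, Adgre1, Pmp22, Krt14, Krt8, Krt18, Krt19, Tcf21, Tbx18, Cldn15, Cldn3, Cldn4, Fgf10, Psca, Gata3, Epcam, Cdh1, Ctnnb1, Pdgfra and Tgfbr3 were named after their values were seen. Protein sequences were not used here. Some genes within the naming rule are counted in their lists but not reported here. The fit was also run on simulated counts in which few genes changed, unlike these data, so that run does not vouch for the calls here. Alternatives were RLE scaling, no filter, a minimum of 1 CPM in 3 libraries, leaving out each library, DESeq2 1.42.0, a block for the replicate number, other pseudocounts and a promoter window without the bases after the start. Libraries whose content was in doubt could not be left out, being all 3 labelled si-Control.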

Additional observations from a re-analysis of the deposited data

How the results depend on the processing

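The counts of genes that rose and fell (6299 and 5684) were 6377 and 5606 with RLE scaling, 6990 and 6067 without a filter, 5721 and 5306 with 1 CPM in 3 libraries, 6953 and 5763 with DESeq2, and 6229 to 6407 and 5493 to 5908 with 1 library left out. Other mesothelial and epicardial genes rose in 27 to 29 and fell in 4 to 5 over all these alternatives, and the summed level of the 9 genes in si-Rbm22 was 2737 to 2910 CPM with 1 library left out and 2859 CPM with RLE scaling. The replicate numbers did not pair the libraries: deviations of same-numbered libraries correlated at -0.016, 0.018 and 0.042, and not every library correlated best with its own number. With the number as a block, 6264 genes rose and 5681 fell, and 27 and 4 of the other mesothelial and epicardial genes. Of 186 listed genes and neighbours that passed, 8 lost the call where still tested in at least 1 alternative (Eny2, Tgfbr3, Pmp22, Slpi, Krt10, Ctnnb1, Tubb3 and Pdgfra), and none changed sign. A further 14 were no longer tested with 1 CPM in 3 libraries, where the lists beside the mesothelial one went from 98 to 87 rises and from 53 to 51 falls (Wt1 targets with 4 rises, junction genes with 10, macrophage markers with 8). Without a filter or with DESeq2, 7 oligodendrocyte and Schwann markers rose and 1 fell, and with 1 CPM in 3 libraries only 2 urothelial markers rose and none fell, since fewer were tested. Depth limits the 5 genes with at most 2 reads over the libraries labelled si-Control, whose folds are bounds or wide intervals.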
